A study of Mus musculus with 10 samples.

Results

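The perineuronal net and lectican genes were chosen by name, as the 10 genes Acan, Bcan, Ncan, Vcan, Hapln1, Hapln2, Hapln4, Tnr, Tnc and Ptprz1. They are 10 of the 24391 gene names that were counted in the mouse hippocampus after subarachnoid hemorrhage (SAH), and the rule that picks them uses no measured value. All 10 passed the filter on low counts.

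The perineuronal net is a lattice of extracellular matrix that wraps the cell body and proximal dendrites of some neurons, above all the fast-spiking interneurons that contain parvalbumin. Its backbone is hyaluronan, a long sugar chain made at the cell surface. Lecticans, which are chondroitin sulfate proteoglycans, bind that chain at one end, link proteins lock the joint, and tenascin-R ties the free ends of the lecticans together. In the hippocampus such nets surround interneurons and the pyramidal neurons of CA2, and a looser matrix of the same family lies around synapses and at the nodes of Ranvier.

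RNA-seq was performed on whole hippocampus of both sides from 10 male mice of the C57BL/6J strain (printed as C56BL/6J in the study's methods), aged 10 to 14 weeks, with 1 library per mouse. In SAH mice (n = 4) the circle of Willis was perforated on 1 side by a filament passed up the internal carotid artery, and tissue was taken 4 days later. Sham mice (n = 3) had the same approach with the filament withdrawn before it punctured the vessel, and Naive mice (n = 3) had no surgery. Surgery in SAH and Sham mice was done under isoflurane, which is not described for Naive mice, so that anesthesia and surgery cannot be told apart. The labels name no drug treatment, and no modified gene was described for any group. The study kept only SAH mice in which regional cerebral blood flow dropped past a set limit right after perforation. The principal comparison set SAH against Sham and Naive pooled as control (n = 6). It asks whether SAH mice differed from mice without hemorrhage, and as Naive mice had no surgery it does not separate hemorrhage from surgery.

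Between 19743388 and 27254655 read pairs were counted per mouse, and the ranges of SAH (20099076 to 26866167) and control overlapped. SAH mouse 3 stood apart: the median distance of its log2 values to those of the other mice was 0.446, against 0.266 to 0.379 for the other 9 mice. Markers of hippocampal neurons were present in every mouse, with Prox1 of dentate granule cells at 48.5 to 84.4 CPM (counts per 1000000 counted pairs, after scaling by the TMM method) and Rgs14 of CA2 at 110 to 136 CPM. Pvalb, which defines the interneurons best known for nets, lay at 28.0 to 32.1 CPM. The summed CPM of 10 mature oligodendrocyte markers was 2690 to 3444 in SAH and 3917 to 5307 in control, and 9 of the 10 fell. Of 8 tested reactive astrocyte markers 6 rose (summed 675 to 1498 in SAH, highest in mouse 3, and 479 to 633 in control), as did 9 of 10 meningeal fibroblast markers (210 to 395 and 153 to 201). Of 8 endothelial markers 3 rose, of 8 microglial markers 2, and of 7 granule cell markers 1. The parvalbumin interneuron, oligodendrocyte precursor, homeostatic astrocyte, CA pyramidal, choroid plexus, and adjacent cortex and thalamus lists had 0 genes past the threshold in SAH against control. Against Naive alone, 2 of the 11 choroid plexus markers were higher in SAH. The choroid plexus sum ran from 107 to 1280 CPM in SAH, again highest in mouse 3, and from 46.4 to 859.8 in control. The part of these cell types in the values below was not tested. In whole tissue, fewer cells of a type and less RNA per cell cannot be told apart.

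The lecticans brevican (Bcan) and neurocan (Ncan), the link protein gene Hapln4, tenascin-R (Tnr) and the receptor phosphatase gene Ptprz1 made up the abundant members. Levels were compared between genes as CPM per kilobase of exon. Bcan, whose product is made by astrocytes and neurons of the adult brain, stood highest at 57.1 ± 4.02 CPM per kb (SD, n = 10 mice), above 91.9% of the 14993 genes tested. Ptprz1 followed at 40.4 ± 1.23, Hapln4 at 39.2 ± 1.52, Ncan at 35.8 ± 2.79 and Tnr at 22.5 ± 3.01 CPM per kb. Hapln1 (8.10 ± 1.12) and Hapln2 (5.77 ± 1.11 CPM per kb) lay near the middle of all genes. The low end held versican (Vcan) at 2.13 ± 0.175, tenascin-C (Tnc) at 1.91 ± 0.416 and aggrecan (Acan) at 0.747 ± 0.132 CPM per kb, the last above 12.4% of genes. Neighbours in this order with overlapping ranges over the 10 mice were Ptprz1 and Hapln4, Hapln4 and Ncan, Hapln1 and Hapln2, and Vcan and Tnc, and the complete order held within 2 of the 10 mice.

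**Figure D1:**
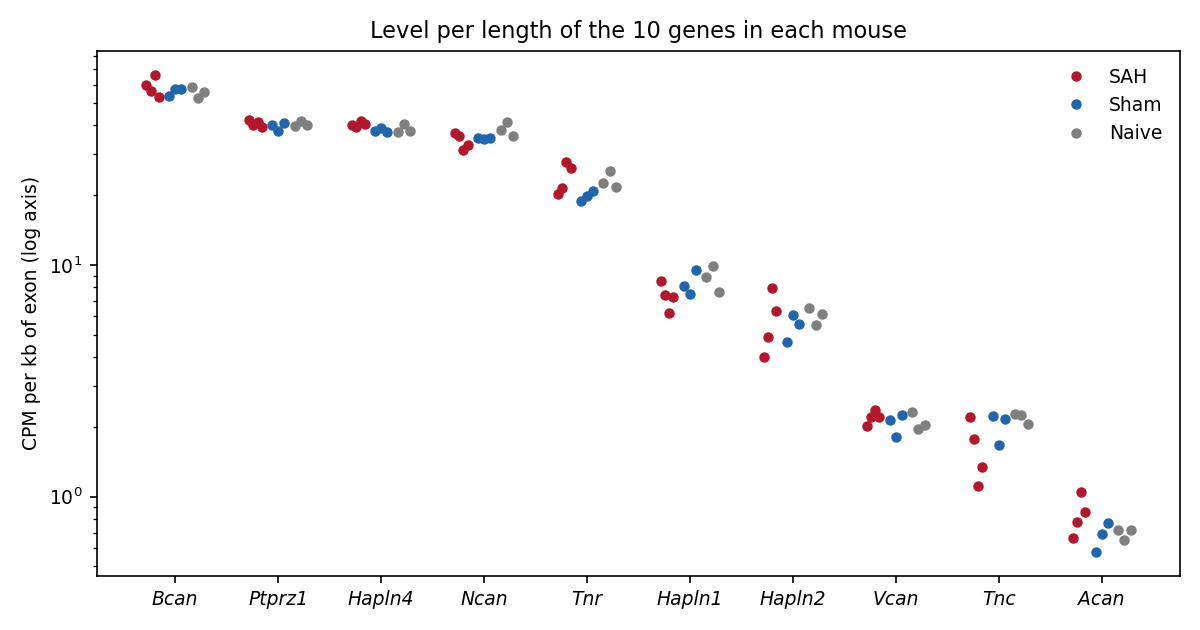
Level of each gene per length (CPM per kb of exon, log axis) in each of 4 SAH, 3 Sham and 3 Naive mice, 1 point per mouse, with genes ordered by their mean. Bcan leads in mean at 57.1 CPM per kb and Acan is lowest at 0.747, and the mice of the 3 groups interleave for most genes.

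No member passed the threshold between SAH and control. By edgeR's quasi-likelihood test with Benjamini-Hochberg adjustment, 0 of the 10 had an adjusted p under 0.10, where 4.68% of the 14993 tested genes did (470 higher and 231 lower in SAH). DESeq2 also called 0 members, beside 1034 genes in all. At an unadjusted p under 0.05 there were 3 members (Acan, Hapln1 and Tnc), against 17.0% of all genes. The ranges of SAH and control mice were apart for 0 of the 10, against 5.2% of genes. The log2 fold changes of the members ran from −0.39 to 0.28, with 7 above 0 and 3 below, and their median was 0.049 (−0.0024 over all tested genes). Their median size regardless of sign was 0.091, against 0.081 over all genes.

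**Figure D2:**
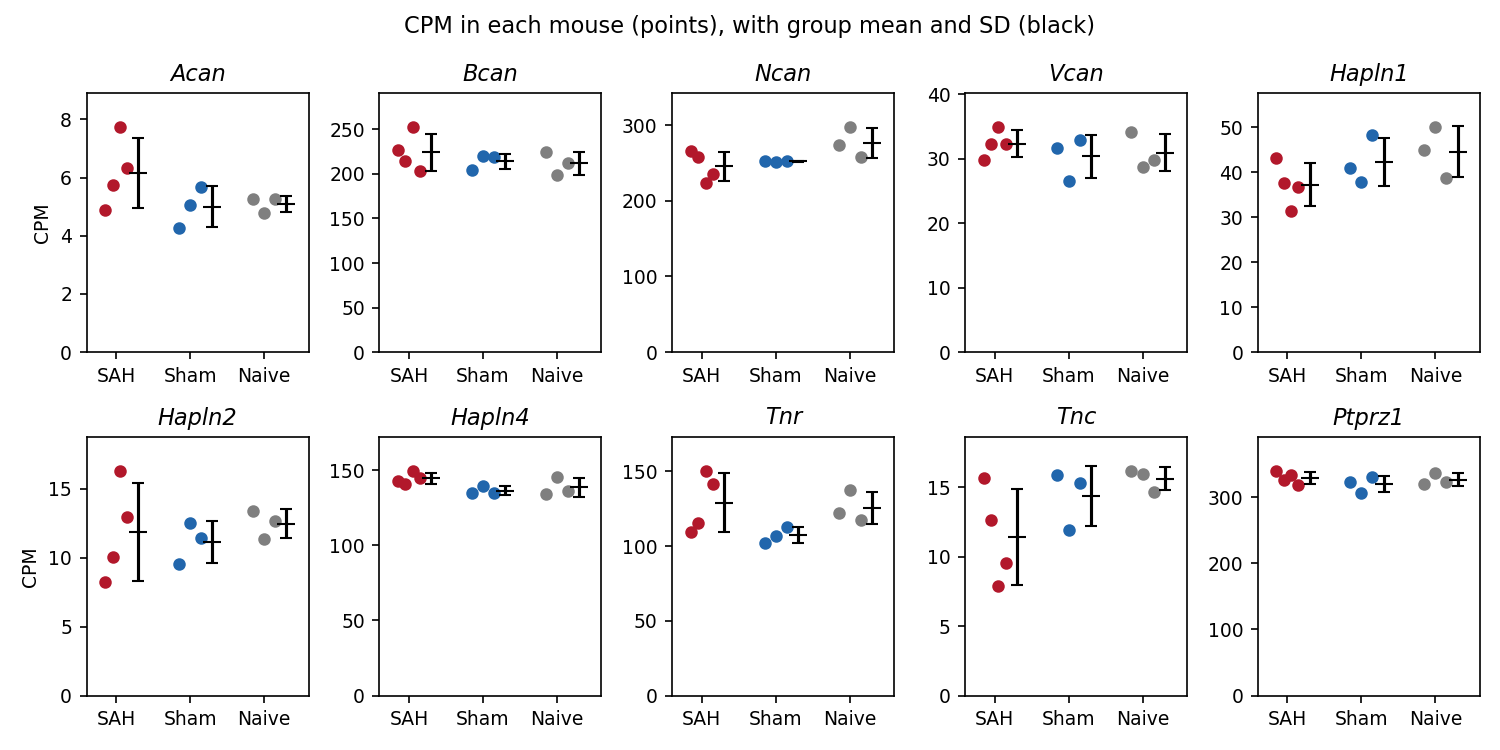
CPM of each gene in each mouse (points, linear axes from 0) by group, with the group mean and SD in black (n = 4 SAH, 3 Sham, 3 Naive). In each of the 10 panels at least 1 SAH mouse lies within the range of the Sham and Naive mice, and the SAH spread on the log2 scale is widest for Tnc, Hapln2, Acan and Tnr (SD 0.43, 0.43, 0.27 and 0.22).

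Acan, Hapln1 and Tnc had the smallest p-values, and the sequence upstream of their RefSeq start sites is shown so that the promoters behind these values can be seen. Windows were available for 9 of the 10 members in the RefSeq table (GRCm38.p6), and each matched 1 place in mm9, the build of the counts. The 250 bases before the start are printed 5′ to 3′ on the gene's strand. Capitals mark letters that match any of 5 motifs on either strand. The TATA box, which helps to place the start of transcription, was searched as TATAAA. The CCAAT box, bound by the factor NF-Y, was searched by the 5 letters of its name. The GC box, bound by factors of the Sp family, was searched as GGGCGG. The AP-1 site, bound by dimers of Fos and Jun, was searched as TGANTCA. The site of the early growth response (EGR) factors was searched as GCGNGGGCG, which can overlap a GC box. Acan lies at chr7:86197862-86198111 (plus strand), Hapln1 at chr13:89679991-89680240 (plus strand) and Tnc at chr4:63708050-63708299 (minus strand), all in mm9.
Acan: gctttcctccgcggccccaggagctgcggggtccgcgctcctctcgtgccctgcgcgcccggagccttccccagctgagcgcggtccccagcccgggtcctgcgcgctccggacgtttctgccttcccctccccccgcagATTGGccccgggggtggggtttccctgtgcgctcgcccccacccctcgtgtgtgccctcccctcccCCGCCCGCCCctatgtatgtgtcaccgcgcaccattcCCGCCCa
Hapln1: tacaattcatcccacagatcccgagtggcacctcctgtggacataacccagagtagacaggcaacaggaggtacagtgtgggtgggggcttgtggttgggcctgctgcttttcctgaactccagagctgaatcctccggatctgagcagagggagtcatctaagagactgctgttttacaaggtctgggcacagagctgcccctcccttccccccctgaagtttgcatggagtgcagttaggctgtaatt
Tnc: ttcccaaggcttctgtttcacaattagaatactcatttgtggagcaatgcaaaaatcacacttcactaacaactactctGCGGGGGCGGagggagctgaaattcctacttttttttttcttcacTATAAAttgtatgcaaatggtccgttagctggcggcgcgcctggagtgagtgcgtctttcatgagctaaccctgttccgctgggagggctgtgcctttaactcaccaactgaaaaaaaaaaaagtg

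The 3 windows differed in composition. Over the 300 bases that also take in the first 50 after the start, GC content was 74.0% with 31 CG pairs for Acan, 54.3% with 3 CG pairs for Hapln1 and 47.3% with 10 CG pairs for Tnc, against a median GC of 52.7% over 32851 mouse windows. The Acan window held 1 CCAAT box (in 37.41% of all windows) and 3 GC boxes (35.66%), of which 2 overlap. The Tnc window held the letters TATAAA (13.62%), at −126 bases from the start, and an EGR match (5.552%) that overlaps a GC box. Tnc has a second RefSeq start 79 bases downstream, whose window holds the same 3 matches, with TATAAA at −205 bases from that start. The Hapln1 window held none of the 5 motifs, and AP-1 letters (7.808% of windows) were in none of the 3. The start of Acan in RefSeq lies 257 bases upstream of the outermost exon counted here. These matches describe letters only.

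Among the lecticans, the large proteoglycans that carry the chondroitin sulfate, the 2 abundant members had narrow intervals around 0. Bcan (chr3:87791453-87804278, minus strand) had 227, 214, 252 and 203 CPM in SAH mice 1 to 4, 205, 220 and 219 in Sham, and 224, 199 and 212 in Naive mice. SAH mouse 3 was highest and the other 3 SAH mice spanned nearly the control range. The log2 fold change was 0.072 (SE 0.056, adjusted p = 0.545), and its 95% interval bounds the difference between −3.33% and 14.3%. Ncan (chr8:72616984-72644743, minus strand), a lectican prominent in the developing brain, had 265, 258, 224 and 235 CPM in SAH, 252, 251 and 253 in Sham, and 274, 297 and 257 in Naive mice. Here SAH mouse 3 was lowest, and SAH mice 3 and 4 lay below all control mice. Its log2 fold change was −0.11 (SE 0.059, adjusted p = 0.389), an interval of −14.9% to 1.47%.

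Acan, the lectican that most reliably marks mature nets, was the rarest member and had the highest fold change of the 10. It lies at chr7:86198369-86259985 (plus strand) and gave 93 to 158 counts per mouse. The SAH mice had 4.88, 5.74, 7.73 and 6.32 CPM, the Sham mice 4.25, 5.07 and 5.67, and the Naive mice 5.27, 4.78 and 5.26 CPM. SAH mice 2, 3 and 4 lay above every control mouse, and SAH mouse 1 within the control range. SAH mouse 2 (5.74 CPM) was nearly tied with the highest control, Sham mouse 7 (5.67 CPM). The log2 fold change was 0.28 (SE 0.126, adjusted p = 0.270). Its interval, 0.925% to 46.8%, is the widest upward among the lecticans. Vcan (chr13:89794915-89882117, minus strand), which is made in part by oligodendrocyte precursors, had 29.7 to 34.9 CPM in SAH and 26.5 to 34.1 in control (log2 fold change 0.077, SE 0.072, adjusted p = 0.613). The summed oligodendrocyte precursor markers were 253 to 287 CPM in SAH and 284 to 329 in control.

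The mean make-up of the lectican pool differed between SAH and control by a few percentage points at most, with a wider spread between mice. Per length, Bcan made up 61.1% ± 3.05 (SD, n = 4) of the summed lectican level in SAH and 58.5% ± 2.22 (n = 6) in control. Ncan made up 35.7% ± 3.20 and 38.6% ± 2.29, Vcan 2.29% ± 0.181 and 2.18% ± 0.189, and Acan 0.873% ± 0.164 and 0.718% ± 0.0616. Over single mice the Bcan share ran from 59.1% to 65.7% in SAH and from 54.3% to 60.6% in control. The Ncan share ran from 30.9% to 37.8% in SAH and from 36.8% to 43.0% in control. For each of the 4 the SAH and control ranges overlapped, and no test was run on these shares. By CPM without length, Ncan had the higher mean share in both groups, with 48.3% in SAH and 51.5% in control, beside 44.1% and 41.6% for Bcan. In SAH mouse 3 the order was the other way round (Bcan 252 and Ncan 224 CPM), and the SAH ranges of the 2 shares overlapped.

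The link proteins fasten lecticans to hyaluronan. Hapln1 (chr13:89680241-89751437, plus strand), the link protein of cartilage and of nets in several brain regions, had 43.2, 37.7, 31.4 and 36.7 CPM in SAH, 40.8, 37.7 and 48.2 in Sham, and 44.9, 50.0 and 38.7 in Naive mice. SAH mice 3 and 4 lay below every control mouse, mouse 4 narrowly, and SAH mouse 2 (37.66 CPM) was nearly tied with the lowest control, Sham mouse 6 (37.72 CPM). The log2 fold change was −0.22 (SE 0.095, adjusted p = 0.261), an interval of −25.3% to −0.915%. Hapln4 (chr8:72607428-72614761, plus strand), the brain link protein tied to inhibitory synapses, was far steadier, at 140.6 to 149.6 CPM in SAH and 134.2 to 145.6 in control. Only 1 SAH mouse exceeded all controls, and the log2 fold change was 0.073 (SE 0.036, adjusted p = 0.330) with an interval of −0.332% to 10.99%.

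Hapln2, the link protein of the nodes of Ranvier, had nearly the same mean in both groups and a wider spread in SAH. It lies at chr3:87825672-87831433 (minus strand). The SAH mice had 8.22, 10.0, 16.3 and 12.99 CPM, the Sham mice 9.53, 12.5 and 11.4, and the Naive mice 13.4, 11.4 and 12.6 CPM. The SAH mice held both the lowest and the highest value of all 10. Means were 11.9 ± 3.55 CPM (SD, n = 4) in SAH and 11.8 ± 1.37 (n = 6) in control, for a log2 fold change of 0.0031 (SE 0.156, adjusted p = 0.995). The mature oligodendrocyte markers, which like Hapln2 belong to myelinated fibres, had a median log2 fold change of −0.54 and ran from −0.73 to −0.34, and the Hapln2 interval was −0.33 to 0.34. Their part in the Hapln2 value was not tested. Without SAH mouse 3 the Hapln2 value was −0.18 and without SAH mouse 1 it was 0.14.

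Hapln3, the one link protein outside the 10, was sparse, at 13 to 32 counts per mouse (log2 fold change 0.21, SE 0.216, adjusted p = 0.650). Of the summed link protein level per length, Hapln4 held 74.6% ± 0.790 (SD, n = 4) in SAH and 72.1% ± 1.58 (n = 6) in control. Hapln1 held 13.6% ± 2.14 and 16.1% ± 1.53, Hapln2 10.6% ± 2.80 and 10.8% ± 1.22, and Hapln3 1.20% ± 0.301 and 1.06% ± 0.182. The ranges of the 2 groups overlapped for each.

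The tenascins are large glycoproteins that join up as trimers or hexamers, and their 2 members here had fold changes of opposite sign. Tnr (chr1:161453900-161855053, plus strand), the crosslinker of the adult net, had 109, 115, 150 and 141 CPM in SAH, 102, 107 and 113 in Sham, and 122, 137 and 117 in Naive mice. SAH mice 3 and 4 lay above all controls and the other 2 within their range. Against control the log2 fold change was 0.15 (SE 0.095, adjusted p = 0.446). Tnc (chr4:63620819-63708049, minus strand), the tenascin of developing and injured tissue, had the lowest fold change and the smallest p of the 10. Its SAH mice had 15.6, 12.6, 7.88 and 9.51 CPM, the Sham mice 15.8, 11.9 and 15.3, and the Naive mice 16.2, 15.9 and 14.6 CPM. SAH mice 3 and 4 lay below every control mouse, SAH mouse 2 above only Sham mouse 6, and SAH mouse 1 among the controls. The log2 fold change was −0.39 (SE 0.154, adjusted p = 0.216), an interval of −39.3% to −3.97%.

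The ratio of Tnr to Tnc, each per length, was 9.19, 12.03, 25.1 and 19.6 in SAH mice 1 to 4, 8.48, 11.8 and 9.70 in Sham, and 9.92, 11.3 and 10.5 in Naive mice. SAH mice 2, 3 and 4 exceeded every control mouse, mouse 2 narrowly (12.03 beside 11.8 in Sham mouse 6). Means were 16.5 ± 7.23 (SD, n = 4) and 10.3 ± 1.19 (n = 6). The ratio was formed after the 2 genes had been seen to differ in sign, and no test was run on it.

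Ptprz1 (chr6:22825502-23002916, plus strand) encodes a receptor phosphatase that binds tenascin-R, and its secreted form, phosphacan, is a net component. It had 340, 325, 333 and 319 CPM in SAH, 324, 306 and 330 in Sham, and 319, 337 and 323 in Naive mice. The groups overlapped almost fully. The log2 fold change was 0.027 (SE 0.036, adjusted p = 0.732), which limits the difference to between −3.39% and 7.46%. Ptprz1 and Hapln4 were also the members with the least spread between mice, with an SD of 0.047 and 0.046 on the log2 scale in control (percentiles 12.9 and 12.6 of all genes). In SAH their percentiles were 5.75 and 4.74. Tnc and Hapln2 were at the other end in SAH, with SDs of 0.43 each (percentiles 91.3 and 91.1).

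Sham and Naive mice were then set against SAH separately, to keep surgery apart from hemorrhage. Against Sham, 0 of 10 members passed (0.72% of 15134 genes did), and 1 had an unadjusted p under 0.05 (9.69% of genes). This was Tnr, with a log2 fold change of 0.27 (SE 0.101, adjusted p = 0.399). The 4 SAH mice lay above the 3 Sham mice for Hapln4 alone (1 of 10 members, against 9.48% of genes with ranges apart), at 0.083 (SE 0.044, adjusted p = 0.583). Acan was 0.30, Hapln1 −0.18 and Tnc −0.33, with adjusted p-values of 0.579 to 0.649.

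Against Naive, 0 of 10 passed (2.99% of genes), and 3 had an unadjusted p under 0.05 (14.8%). These were Ncan at −0.17 (SE 0.064, adjusted p = 0.230), Tnc at −0.45 (SE 0.185, adjusted p = 0.273) and Hapln1 at −0.26 (SE 0.115, adjusted p = 0.324). Ranges were apart for 0 members (13.8% of genes). Tnr, which was 0.27 against Sham, was 0.040 (SE 0.101, adjusted p = 0.889) against Naive. These comparisons share the SAH mice, so their values are not independent.

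Between Sham and Naive, 0 of 10 members passed (0.00661% of genes, which is 1 gene), and 0 had an unadjusted p under 0.05 (2.02%). Ranges were apart for 2 of the 10, Ncan and Tnr, against 8.99% of genes. The 3 Sham mice lay below the 3 Naive mice for both, by −0.13 for Ncan (SE 0.068) and −0.23 for Tnr (SE 0.108) on the log2 scale. DESeq2 called 0 members in each of these 3 comparisons. Its calls over all genes were 299 against Sham, 736 against Naive and 2 between Sham and Naive.

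**Figure D3:**
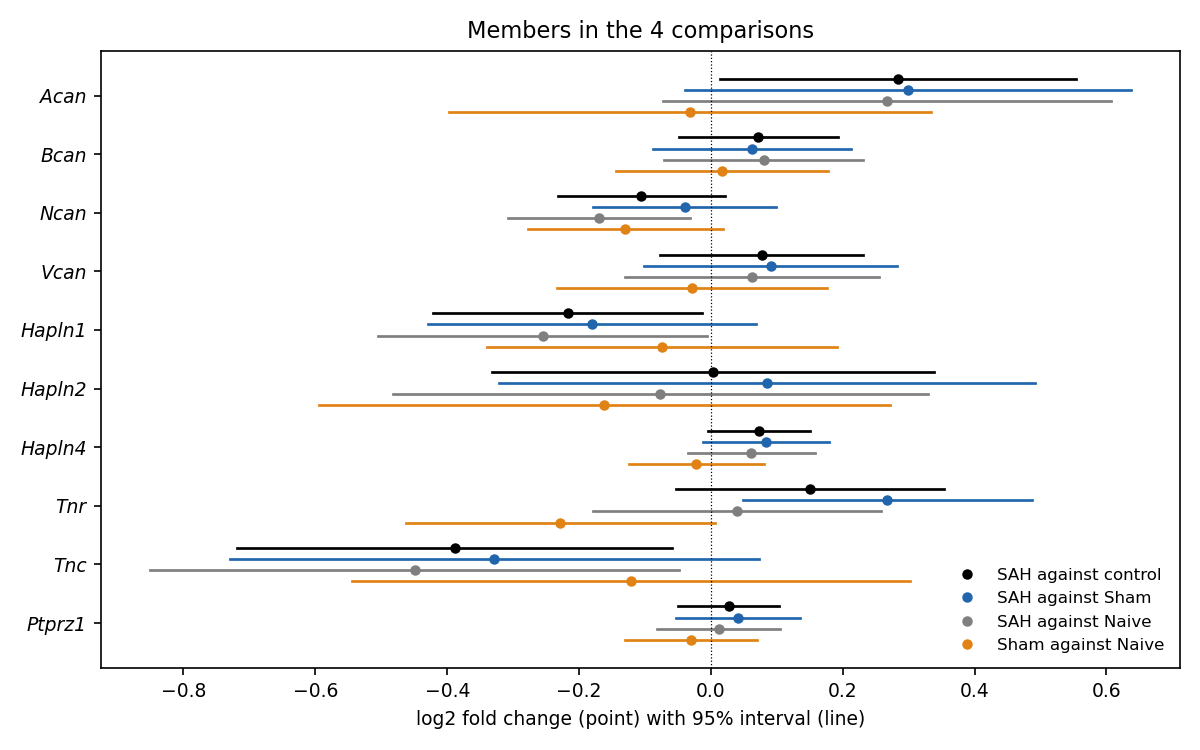
Log2 fold change (point) with its 95% interval (line) for each gene in the 4 comparisons. Intervals leave out 0 for Acan, Hapln1 and Tnc in SAH against control, for Tnr in SAH against Sham, and for Ncan, Hapln1 and Tnc in SAH against Naive, but no adjusted p is under 0.10.

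SAH mouse 3 held an extreme value for most members. It was the highest of all 10 mice for Acan, Bcan, Vcan, Hapln2, Hapln4 and Tnr, and the lowest for Ncan, Hapln1 and Tnc. Without it, the SAH against control log2 fold change was 0.17 for Acan, −0.14 for Hapln1 and −0.25 for Tnc, with adjusted p-values of 0.604, 0.535 and 0.429. Tnr was then 0.072, Bcan 0.012 and Ncan −0.062. Without SAH mouse 1, in contrast, the values were 0.38 for Acan, −0.29 for Hapln1 and −0.57 for Tnc. Tnc passed the threshold in that fit alone of the 10 that left out 1 mouse (adjusted p = 0.0416), and likewise in SAH against Naive (−0.63, adjusted p = 0.0750). The sign held in all 10 such fits of SAH against control for 9 of the members, with Hapln2 the exception.

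**Figure D4:**
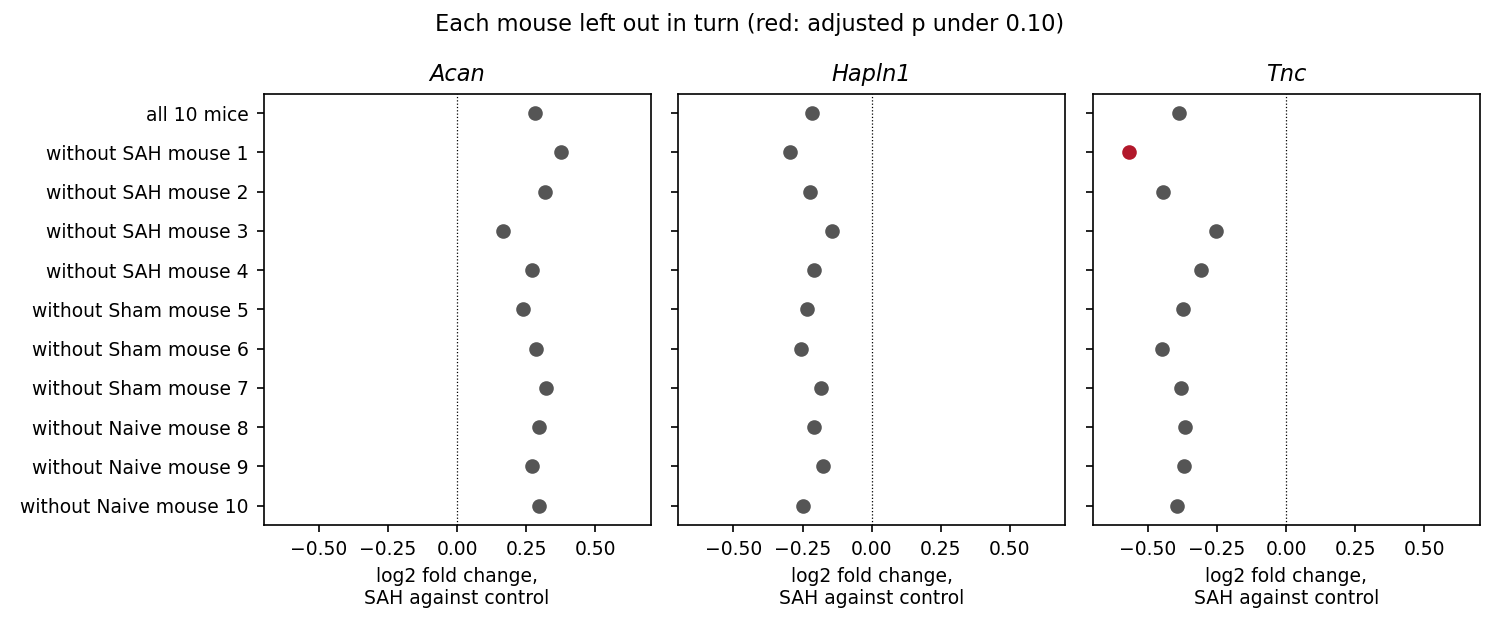
Log2 fold change of Acan, Hapln1 and Tnc between SAH and control with all 10 mice and in the 10 fits that leave 1 mouse out, with fits at an adjusted p under 0.10 in red. Values keep their sign throughout, move towards 0 without SAH mouse 3 and away from 0 without SAH mouse 1, and only Tnc without SAH mouse 1 is red.

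The genes that build, modify and cut this matrix were described from 5 lists with 96 genes. Of these, 92 were tested, and Chst13, Mmp3, Timp1 and Tnn did not pass the filter and are not in these counts (Timp1 is described with the inhibitors). Between SAH and control 4 rose and 3 fell, which is 7.61% of those tested beside 4.68% of all genes, and their median log2 fold change was −0.0082. Among 14 genes of hyaluronan synthesis, breakdown and binding, 1 rose and 0 fell. This was Stab1, a scavenger receptor of macrophages and sinusoidal endothelium that takes up matrix debris. Its SAH mice had 21.1, 18.1, 30.1 and 27.1 CPM, the Sham mice 14.2, 13.1 and 13.2, and the Naive mice 13.3, 13.7 and 13.7 CPM. All SAH mice were above all controls (log2 fold change 0.83, SE 0.114, adjusted p = 0.00284). The hyaluronan synthase gene Has2 was scarcely detected at 4 to 17 counts per mouse (−0.43, SE 0.330, adjusted p = 0.538), and the hyaluronan receptor gene Cd44 had −0.016 (SE 0.188, adjusted p = 0.978).

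Of 20 tested genes of chondroitin sulfate synthesis, 0 rose and 1 fell. This was Chst3, the sulfotransferase that places sulfate on carbon 6 of the chondroitin sugar. It had 3.82, 3.24, 3.99 and 3.60 CPM in SAH, 5.74, 4.85 and 6.03 in Sham, and 5.53, 6.94 and 5.48 in Naive mice. The groups were apart, with a log2 fold change of −0.65 (SE 0.116, adjusted p = 0.00883), or 79 to 150 counts per mouse. Chst11, which places sulfate on carbon 4 and was chosen after its value was seen, had 0.018 (SE 0.060, adjusted p = 0.904).

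Of 14 tested proteases of lecticans and their inhibitors, 3 rose and 1 fell. The gene that fell was Adamts4, an aggrecanase that cuts Acan, Bcan and Vcan and that is also known from oligodendrocytes. Its SAH mice had 22.3, 23.7, 11.5 and 19.4 CPM, the Sham mice 32.9, 28.7 and 41.2, and the Naive mice 41.2, 40.6 and 36.5 CPM. All SAH mice lay below all controls (log2 fold change −0.93, SE 0.162, adjusted p = 0.00803). The mature oligodendrocyte markers Mog (46.1 to 66.1 CPM in SAH, 82.5 to 111 in control) and Mag (137 to 187 and 227 to 279) were lower too, and their part in the Adamts4 value was not tested.

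Cathepsin S (Ctss), a protease of microglia and macrophages that cuts net proteins, rose, with 69.2 to 126 CPM in SAH and 50.4 to 66.3 in control (log2 fold change 0.74, SE 0.128, adjusted p = 0.00764). Timp3, an inhibitor of ADAMTS proteases, rose, with 128 to 177 CPM in SAH and 98.1 to 116 in control (0.49, SE 0.079, adjusted p = 0.00573). Mmp2, a gelatinase, rose, with 3.24 to 3.74 CPM in SAH and 1.84 to 2.61 in control (0.59, SE 0.126, adjusted p = 0.0239). The 3 comprise an inhibitor and 2 proteases, and the SAH and control mice were apart for each. The microglial markers Cx3cr1 (39.3 to 58.5 CPM in SAH, 50.8 to 57.3 in control) and P2ry12 (35.5 to 48.4 and 41.4 to 51.7) overlapped between groups, while the meningeal fibroblast marker Col1a1 was 5.86 to 15.7 CPM in SAH and 5.14 to 6.76 in control. Their part in the 3 values was not tested.

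Timp1, a metalloproteinase inhibitor gene induced in injured tissue, was removed by the filter on low counts and is named after its values were seen. It had 9, 6, 79 and 23 counts in SAH mice 1 to 4, 2, 5 and 6 in Sham, and 2, 3 and 3 in Naive mice. SAH mice 1, 3 and 4 were above every control mouse in CPM, and SAH mouse 2 (0.221 CPM) was just below Sham mouse 7 (0.241 CPM). Without the filter Timp1 rose, with a log2 fold change of 3.17 (95% interval 1.69 to 4.65, adjusted p = 0.0251 from edgeR), and DESeq2 gave 3.26 (adjusted p = 0.000387). Leaving out SAH mouse 3 gave 1.83 (interval 0.82 to 2.83, adjusted p = 0.0554). In the other 9 fits without 1 mouse the value was 3.03 to 3.55 (adjusted p = 0.00408 to 0.0704).

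Of 27 net receptors and ligands, 0 rose and 1 fell. This was Nfasc (neurofascin), an adhesion molecule of axon initial segments and nodes, with 287, 297, 299 and 322 CPM in SAH, 342, 331 and 361 in Sham, and 414, 422 and 372 in Naive mice. The groups were apart (log2 fold change −0.31, SE 0.067, adjusted p = 0.0248), and the Sham mice lay between (SAH against Sham −0.20, adjusted p = 0.211, SAH against Naive −0.42, adjusted p = 0.00278). Mature oligodendrocyte markers were lower too (median log2 fold change −0.54), and their part in the Nfasc value was not tested. Sema3a, a guidance factor that is bound by the net, had 8.37, 5.22, 7.07 and 5.44 CPM in SAH and 4.47 to 5.75 in control (0.35, SE 0.137, adjusted p = 0.216). Of 17 tested other matrix components, 0 passed, with the proteoglycan genes Cspg4 at 0.072 (SE 0.093, adjusted p = 0.727) and Cspg5 at −0.14 (SE 0.069, adjusted p = 0.330). Pvalb itself had −0.046 (SE 0.051, adjusted p = 0.672). The 7 genes that passed did so in each of the 10 fits that left out 1 mouse. Against Sham alone, Stab1 (adjusted p = 0.0471) and Timp3 (adjusted p = 0.0882) passed and the other 5 did not, at log2 fold changes of −0.82 for Adamts4 (adjusted p = 0.102), −0.60 for Chst3 (0.105), 0.66 for Ctss (0.110), 0.60 for Mmp2 (0.158) and −0.20 for Nfasc (0.211). Between Sham and Naive 0 of the 7 passed.

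**Figure D5:**
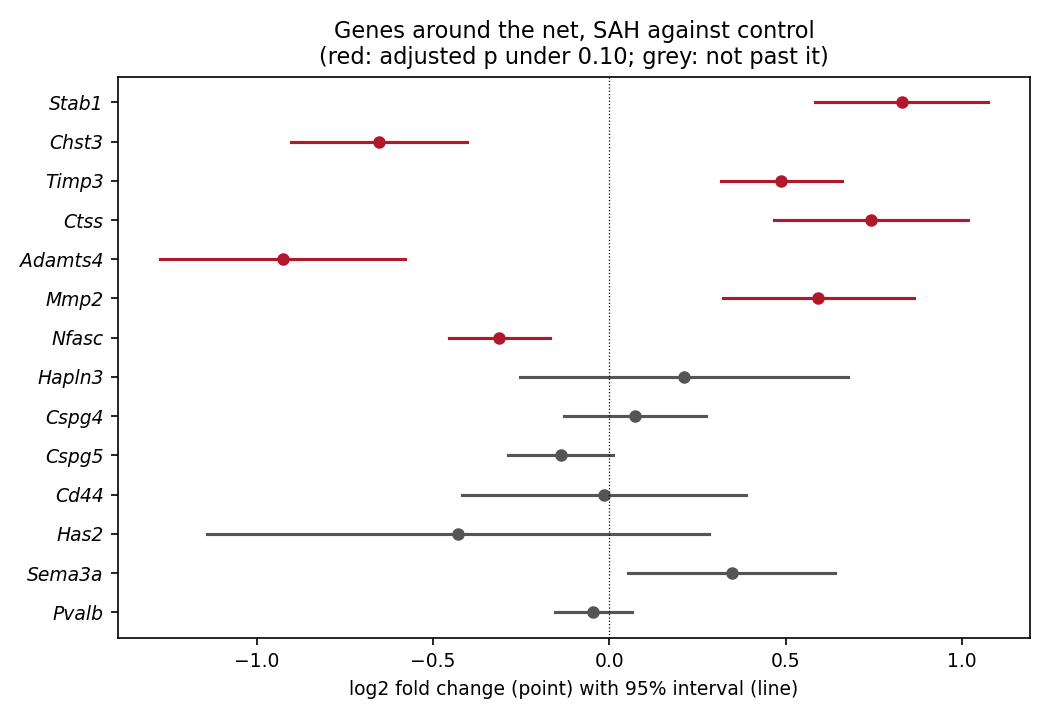
Log2 fold change between SAH and control (point) with its 95% interval (line) for the 7 pathway genes past the threshold, in red, and 7 further genes named whether or not they passed, in grey. Stab1, Timp3, Ctss and Mmp2 lie above 0, Chst3, Adamts4 and Nfasc below, and the 7 grey genes have adjusted p-values of 0.216 to 0.978.

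The genes whose pattern over the 10 mice was most like that of Tnc, by the Euclidean distance of log2 CPM after each gene's control mean was subtracted, were Nrep, Car8 and Mmp15. Nrep lay at a distance of 0.217 (47.5 to 97.2 CPM in SAH, 71.7 to 97.1 in control) with a fold change of −0.39 on the log2 scale (adjusted p = 0.217). Car8, a carbonic anhydrase relative, lay at 0.332 with −0.28 (adjusted p = 0.393). Mmp15, a membrane-bound metalloproteinase, lay at 0.370 with −0.39 and did pass the threshold (SE 0.109, adjusted p = 0.0832). SAH mouse 3 was the lowest SAH mouse for all 3. They were selected for likeness to Tnc over these same mice, so a shared low mouse and shared sign follow from the selection.

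Each lectican gene lies beside a link protein gene, with 0 other counted genes between them. Acan and Hapln3 are 1927 bases apart on chromosome 7 and Ncan and Hapln4 2222 bases apart on chromosome 8, with their 3′ ends facing. Vcan and Hapln1 are 43477 bases apart on chromosome 13, also with ends facing, and Bcan and Hapln2 are 21393 bases apart on chromosome 3 on the same strand. Levels within a pair could differ widely. Per length, Bcan was 9.90 times Hapln2, Acan 1.25 times Hapln3, Ncan 0.913 times Hapln4 and Vcan 0.263 times Hapln1. The SAH against control log2 fold changes were 0.28 and 0.21 for Acan and Hapln3, 0.072 and 0.0031 for Bcan and Hapln2, −0.11 and 0.073 for Ncan and Hapln4, and 0.077 and −0.22 for Vcan and Hapln1. The values of a pair had the same sign for Acan and Hapln3 and opposite signs for Ncan and Hapln4 and for Vcan and Hapln1. For Bcan and Hapln2 no sign can be compared, since that of Hapln2 turned in 5 of the 10 fits that left out 1 mouse. All 8 adjusted p-values were above 0.10.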

How the data were processed

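Total RNA of bilateral hippocampus was depleted of ribosomal RNA and sequenced as stranded read pairs. Per the labels and the study's methods, the authors aligned the pairs to mm9 with STAR and counted them with featureCounts 1.6.2 over the union of exons of each UCSC gene name. The deposited values are raw counts without normalization for 10 mice. No 2 libraries were alike enough to be duplicates (chi-square per degree of freedom 3.62 to 27.0 over 45 pairs).

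CPM followed TMM normalization, and CPM per kb divided it by exon length. Tests were run in edgeR 4.0.16 (R 4.3.3) after filterByExpr (minimum count 10, minimum total 15), by the quasi-likelihood method, with Benjamini-Hochberg adjustment over all tested genes and a threshold of 0.10. SAH against control used 2 groups, and the pairwise comparisons 1 fit of 3. Each SE is the log2 fold change over the square root of F, and intervals are 95%. The fit was tested on simulated data. The authors used DESeq2, run here (1.42.0) as an alternative. With 3 or 4 mice a group, and 6 in the pooled control, p-values weigh a group difference against the spread between these mice. The fit estimates that spread partly from the other tested genes. Intervals assume the fitted model.

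The members, the 5 pathway lists and the marker lists, the fixed genes included, were chosen with earlier results of these data known, although no rule for them uses a measured value. Named genes were all members, up to 5 called genes per pathway list, fixed genes (Hapln3, Adamts4, Cspg4, Cspg5, Cd44, Has2, Sema3a, Pvalb), the 3 nearest to the member with the smallest p, and up to 2 markers per cell type. Of the members' 159 counted exons, 152 equal an exon of the mm9 gencode vM1 annotation. Sequences are from RefSeq.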

Additional observations from a re-analysis of the deposited data

Results flagged for a closer look

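Values of 48 sets of mice (the members, the 7 called pathway genes and 7 further named genes, in SAH and in control) were examined for a mouse far from the rest of its group, and 2 stood out, where chance gives about 1 in 20. In control, Sham mouse 6 had 11.9 CPM of Tnc, and its gap to the next mouse was 0.641 of the group's range (above Dixon's 95% critical value for 6). Without it the Tnc log2 fold change in Sham against Naive was −0.0020, beside −0.12 with all mice. Also in control, Naive mouse 9 had 23.3 CPM of Cspg4, with a gap of 0.780 of the range.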

How the results depend on the processing

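No paired analysis was possible because the labels number the mice 1 to 10 with no number shared between groups. Of 680 member values under alternatives (4 comparisons, 17 settings), 654 kept their direction and side of the threshold, 24 changed sign and 2 passed the threshold (Tnc without SAH mouse 1, above). Without the filter on low counts Hapln2 was −0.00012 in SAH against control. With each mouse left out, log2 fold changes that changed sign ran from −0.18 to 0.14 for Hapln2 in SAH against control, −0.078 to 0.0042 for Ncan, −0.094 to 0.22 for Hapln2 in SAH against Sham, −0.26 to 0.060 for Hapln2, −0.0036 to 0.037 for Ptprz1, −0.038 to 0.11 for Tnr in SAH against Naive, and −0.13 to 0.071 for Acan, −0.025 to 0.059 for Bcan, −0.092 to 0.061 for Vcan, −0.18 to 0.014 for Hapln1, −0.046 to 0.015 for Hapln4, −0.053 to 0.00057 for Ptprz1 in Sham against Naive. Members called then numbered 0 to 1 in SAH against control and in SAH against Naive. The causes were not tested.

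Counts over all genes moved more. In SAH against control there were 369 at an adjusted p under 0.05 and 1034 with DESeq2. In SAH against Sham there were 49 at 0.05, 299 with DESeq2, 182 without the filter and 12 with the 2 groups alone. In SAH against Naive there were 260 at 0.05, 736 with DESeq2 and 282 with the 2 groups alone, and in Sham against Naive 2 with DESeq2 and 3 with the 2 groups alone. With each mouse left out they ran from 308 (without SAH mouse 4) to 1093 (without SAH mouse 2), from 6 (without Sham mouse 6) to 215 (without SAH mouse 3), from 109 (without Naive mouse 8) to 683 (without SAH mouse 2), and from 0 to 1, in that order. In SAH against control the 7 pathway genes kept their call under each of the 17 alternatives, run on them after their calls were seen. Among the members the standard errors were largest for Hapln2 (0.156), Tnc (0.154) and Acan (0.126), which had 93 to 430 counts per mouse.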
